A study of Mus musculus and Homo sapiens with 12 samples.

Results

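The 60 genes described here encode the machinery of mitosis, that is the cyclins and kinases that start it, the kinetochore and spindle that move chromosomes, the checkpoint that times their separation, and the proteins that condense chromosomes and divide the cell. They were taken by gene symbol from a list of 60 symbols, which was drawn up with earlier results of these data known. Of these, 58 were found among the 23201 genes of the mouse table and 59 among the 18190 genes of the human table, and 57 were in both. All 58 and all 59 had an adjusted p, and the mean normalised count of each was at least 64, so no member found was left untested for low values. Members that were not found cannot be judged in this way. KIF4A and SGO2 did not match a symbol of the mouse table, and KIFC1 did not match a symbol of the human one.

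RNA was sequenced from 12 samples in 4 groups of 3 biological replicates. The groups of the mouse model were KPC, a pancreatic ductal carcinoma line labelled parental, and KPC LM2, its liver metastatic derivative of generation 2. The groups of the human model were PANC1, an established pancreatic carcinoma line also labelled parental, and PANC1 LM3, its liver metastatic derivative of generation 3. All 4 groups carry the genotype label WT, and for all of them the protocols describe a splenic injection of 500000 cells (day 1) and harvest of tumours from the liver (day 21). The titles name cells and the protocols name tumours, so the share of host tissue in a sample is not settled by the labels, and neither the host animals nor their number are given. Nothing in the labels says that replicates came from separate animals, so p-values measure the spread between these samples, which may be technical.

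Each model came as 1 table of the authors' own comparison between its parental and selected groups, with 1 row per gene. These tables hold no value per sample, so single samples cannot be shown, the overlap of groups cannot be given and the depth of each sample is unknown. The mean normalised count of a gene is an average over the samples of a model after scaling for depth. Errors after ± are standard errors (SE) of the log2 fold change, also the authors'. A gene is said to be called when its adjusted p from the Wald test was under 0.05. The numerator of the fold change is named in neither table, so each value keeps its listed sign, and no sign is assigned to a parental or a selected line. In samples of tumour tissue, fewer dividing cells and less RNA of these genes per cell cannot be told apart.

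Mitosis genes are transcribed late in the cell cycle. Their promoters are known for a pair of elements, a CCAAT box, bound by the factor NF-Y, and a cell cycle homology region (CHR), bound by the MuvB core, which represses the genes in resting cells as part of the DREAM complex and activates them with B-MYB (MYBL2) and FOXM1 in dividing cells. The cyclin B-CDK1 kinase then drives entry into mitosis, and the anaphase-promoting complex with CDC20 ends it by destroying cyclin B and securin. In tumours, transcripts of these genes, MKI67 among them, are commonly read as markers of dividing cells.

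Mouse promoter sequences show these elements in the members. RefSeq sequences of GRCm38.p6 were at hand for 49 of the 58 members of the mouse table, in 54 windows of 300 bases, each from 250 bases before a gene's start to 50 bases from it on. Windows were searched on both strands for TTTGAA, the core of the CHR, and for CCAAT. The CHR core was in 36 of 54 member windows (66.7%) and in 17.9% of all 32851 windows. The box was in 43 of 54 member windows (79.6%) and in 37.4% of all windows, and both motifs were in 59.3% of member windows and 6.95% of all. The motifs overlapped in 1 member window. Windows that held neither motif belonged to Birc5, Kif18a, Mad2l1, Ncaph, Nuf2, Nusap1 and Pttg1. No window was at hand for Aurkb, Ccna2, Cdc25c, Foxm1, Incenp, Kif20a, Smc4, Spc24 and Tpx2.

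The 5 stretches below are those of members called in the mouse table that hold both motifs between 120 bases before the start and base 15 from it on. They are printed 5′ to 3′ on the gene's strand, with TTTGAA and CCAAT, or ATTGG where the box lies on the other strand, in capitals. They lie at chr1:189688072-189688206 (minus strand) for Cenpf, chr9:70421540-70421674 (minus) for Ccnb2, chr1:139454653-139454787 (plus) for Aspm, chr4:118437329-118437463 (minus) for Cdc20 and chr9:61946785-61946919 (minus) for Kif23, all in GRCm38.p6.
Cenpf: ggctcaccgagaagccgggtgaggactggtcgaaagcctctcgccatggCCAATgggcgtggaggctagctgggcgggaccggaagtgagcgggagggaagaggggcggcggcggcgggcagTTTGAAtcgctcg
Ccnb2: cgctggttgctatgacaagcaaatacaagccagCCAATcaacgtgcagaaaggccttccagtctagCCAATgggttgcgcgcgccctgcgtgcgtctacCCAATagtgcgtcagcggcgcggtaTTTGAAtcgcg
Aspm: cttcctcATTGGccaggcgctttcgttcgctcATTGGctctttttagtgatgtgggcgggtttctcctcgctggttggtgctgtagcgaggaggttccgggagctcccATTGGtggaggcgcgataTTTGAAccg
Cdc20: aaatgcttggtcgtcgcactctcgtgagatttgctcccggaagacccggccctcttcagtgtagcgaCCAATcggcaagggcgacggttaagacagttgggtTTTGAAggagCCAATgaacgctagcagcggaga
Kif23: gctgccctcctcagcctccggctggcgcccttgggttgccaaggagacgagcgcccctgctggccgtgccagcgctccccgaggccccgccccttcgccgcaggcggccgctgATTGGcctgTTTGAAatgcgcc
In the stretches of Ccnb2 and Aspm 3 boxes precede the TTTGAA, which begins at base 5 and base 7 counted from the start. In those of Cenpf and Kif23 the TTTGAA begins at base 3 after 1 box, and in that of Cdc20 it begins at base -18, between 2 boxes. A match of letters is a description of the sequence and does not show that a factor was bound in these samples. In the authors' deposited table for KPC, the 33 members whose windows hold TTTGAA had a median log2 fold change of 0.50, and the 16 members without it had 0.32. In the authors' deposited table for PANC1, with members sorted by the same mouse windows, the medians were -0.90 over 32 members and -0.84 over 16. Neither gap was tested. The root mean square SE of the members (0.24 in KPC and 0.08 in PANC1) is the error of a gene's fold change. It does not measure the error of a gap between medians.

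Between KPC and KPC LM2 samples, the mitosis genes lay together on the positive side, with small fold changes. In the authors' deposited table for KPC, 55 of 58 members had a positive log2 fold change and 14 were called, all of them positive. Over all 20050 genes tested, 5.77% were called positive and 4.6% negative. All members were at 64 or more, and of the 9767 genes at that level 7175 had a positive value, 10.6% were called positive and 2.11% were called negative. The median over the members was 0.48 (quartiles 0.29 and 0.60), beside -0.08 over all genes tested and 0.22 over genes at 64 or more, in the authors' deposited table. The called members had values from 0.58 for Cdc20 to 0.93 for Aspm, which are 1.495-fold and 1.901-fold on the linear scale, in the authors' deposited table. No called member was beyond 1 in absolute log2 fold change, as were 6.5% of all genes tested. These calls depend on where zero is set: with fold changes recentred on genes at 64 or more, a shift of 0.22, 1 member was called, and so was 1 once the trend of fold change with level (a running median) was taken off. It was Cenpf in both settings, with adjusted p-values of 0.012 and 0.014 from the redone Wald test.

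**Figure D1:**
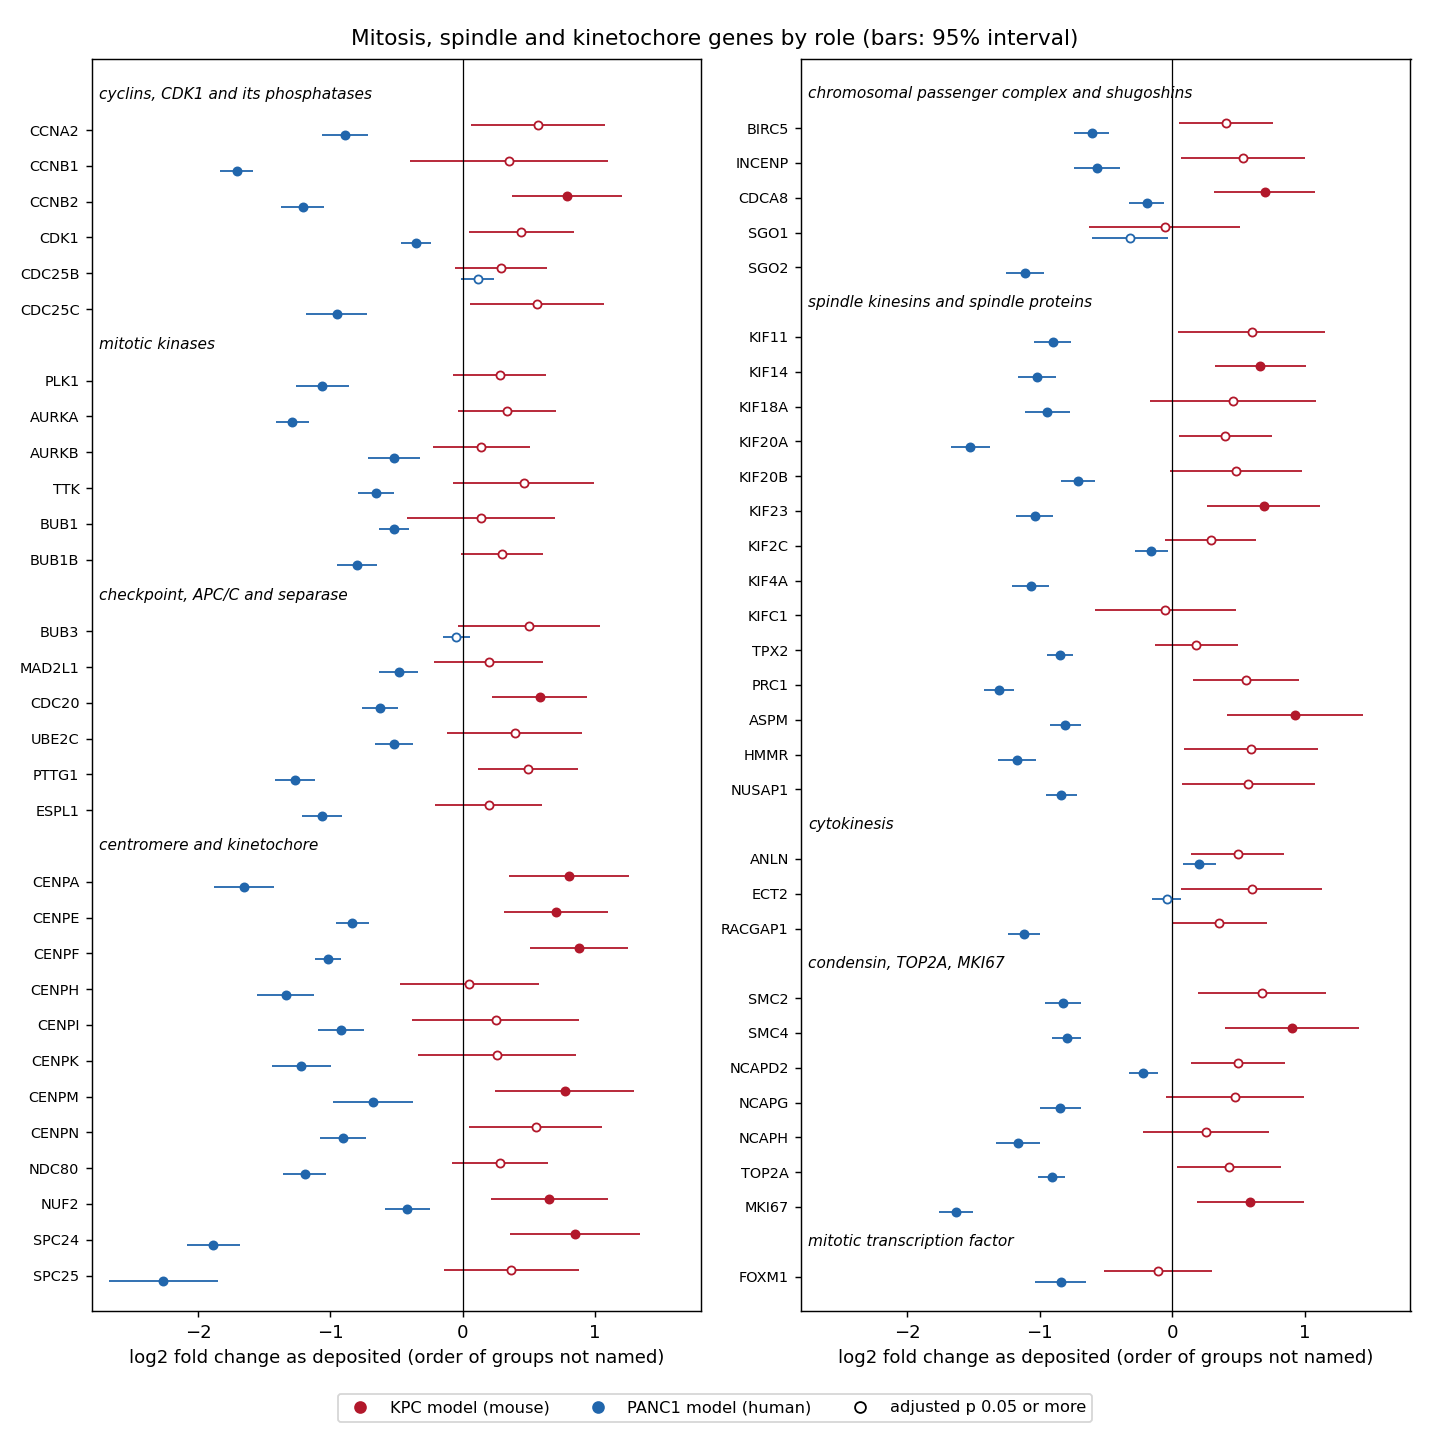
Log2 fold change of each member as deposited (x axis), by role (rows), for the KPC model (red) and the PANC1 model (blue), with bars for the 95% interval from the listed SE and open points for genes that were not called. Red points lie between -0.11 and 0.93 with wide bars, and blue points reach from -2.26 to 0.20 with narrow ones.

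**Figure D2:**
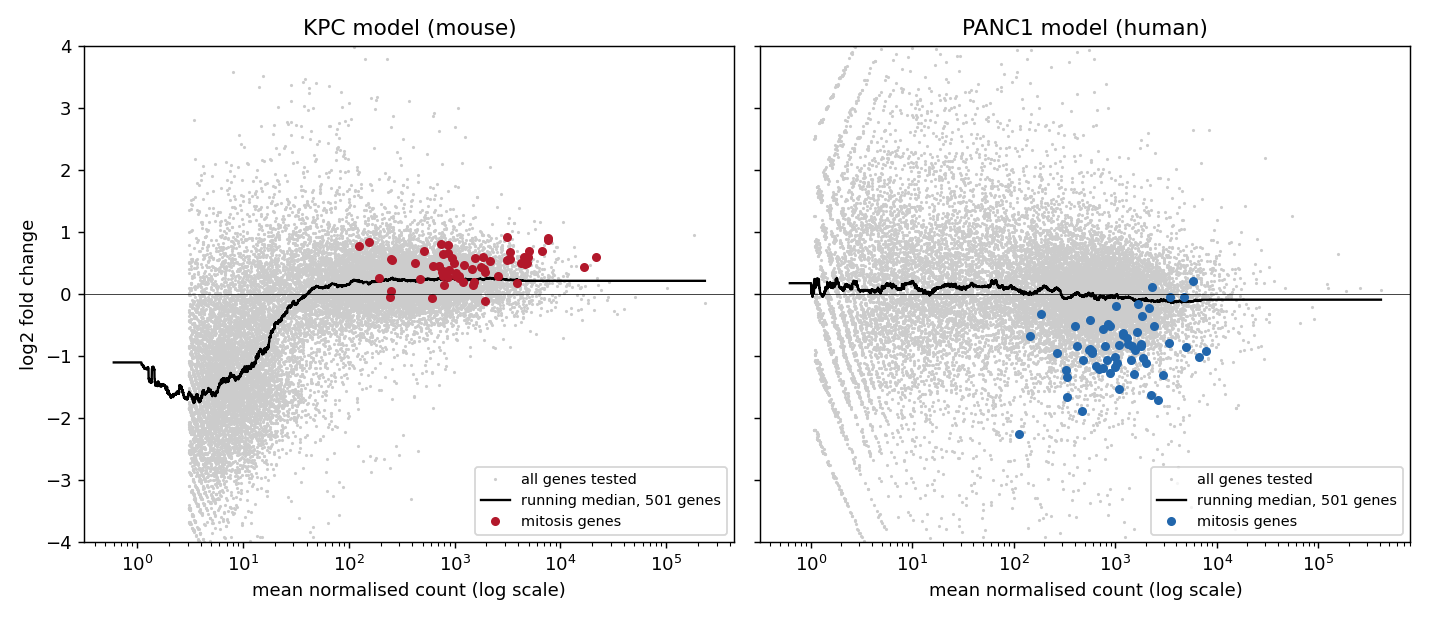
Log2 fold change (y axis, cut at 4 either way) against mean normalised count (log scale) in the KPC table (left) and the PANC1 table (right), for all genes tested (grey) and members (coloured), with the running median over genes ordered by level (black). In KPC the running median lies above 0 at the levels of the members, and in PANC1 most members lie below it.

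Kinetochore genes held the most calls in KPC of any role. Of the 12 centromere and kinetochore genes, 6 were called positive in KPC and 0 negative, with a median of 0.60 in the authors' deposited table. Among all KPC genes at 64 or more, 10.6% were called positive. Of the 6, only Cenpf was called after recentring or with the level trend taken off. Cenpf, a large protein of the outer kinetochore, had the smallest adjusted p of all members (0.88 ± 0.19, adjusted p = 0.000233, mean normalised count 7583) in the authors' deposited table. Cenpe, a kinesin that carries chromosomes to the spindle equator, was at 0.70 ± 0.20 (adjusted p = 0.011) in the authors' deposited table. Cenpa, the histone H3 variant that marks the centromere, was at 0.80 ± 0.23 (adjusted p = 0.011) in the authors' deposited table. Spc24 and Nuf2, subunits of the NDC80 complex that grips spindle microtubules, were called at 0.85 ± 0.25 and 0.65 ± 0.23, as was Cenpm at 0.77 ± 0.27, in the authors' deposited table. The remaining 2 subunits of that complex were not called, Ndc80 at 0.28 ± 0.19 and Spc25 at 0.36 ± 0.26 in the authors' deposited table. Cenph, of the inner kinetochore, had the value closest to 0 of the 12, at 0.05 ± 0.27 in the authors' deposited table.

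Of the other KPC groups, spindle genes had 3 calls among 13, all positive. They were Aspm (0.93 ± 0.26), which organises spindle poles, and the kinesins Kif23 (0.69 ± 0.22) and Kif14 (0.67 ± 0.17), both of which act in cytokinesis, in the authors' deposited table. Among 7 chromosome structure genes, the condensin subunit gene Smc4 (0.91 ± 0.26) and Mki67 (0.59 ± 0.20), which encodes a coat of mitotic chromosomes, were called in the authors' deposited table. Mki67 also had the largest mean normalised count of all members in KPC, a value not corrected for gene length, at 21467 in the authors' deposited table. Each of 3 further groups had 1 call. These were the cyclin gene Ccnb2 (0.79 ± 0.21), the gene Cdc20 of the activator of the anaphase-promoting complex (0.58 ± 0.18), and Cdca8 (0.70 ± 0.19), which encodes borealin of the chromosomal passenger complex, in the authors' deposited table.

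None of the 6 mitotic kinase genes was called in KPC, although all 6 had positive values. They ran from 0.14 ± 0.19 for Aurkb to 0.46 ± 0.27 for Ttk, with Plk1 at 0.28 ± 0.18, in the authors' deposited table. The 3 cytokinesis genes were also without a call, from 0.36 ± 0.18 for Racgap1 to 0.60 ± 0.27 for Ect2 in the authors' deposited table. Anln, Ncapd2, Smc2 and Prc1 had adjusted p-values of 0.052, 0.053, 0.055 and 0.056, just outside the threshold, in the authors' deposited table. Negative values were listed for 3 members, none of them called: Foxm1, the transcription factor of this programme, at -0.11 ± 0.21, Sgo1 at -0.06 ± 0.29 and Kifc1 at -0.05 ± 0.27 in the authors' deposited table. The standard deviation of the 58 fold changes was 0.24, and the root mean square of their SE was 0.24. The order of members in KPC is therefore not resolved by these errors. The mouse genes Kif4 and Sgo2a, which are named differently from the human members and were looked up after the tables were seen, were at 0.62 ± 0.21 (called) and 0.49 ± 0.25 (not called) in the authors' deposited table. Sgo2b, the other mouse counterpart of SGO2, was at -1.53 ± 0.90 (mean normalised count 16.01, not called) in the authors' deposited table.

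Between PANC1 and PANC1 LM3 samples the same genes lay on the negative side, further from 0 and with smaller errors. In the authors' deposited table for PANC1, 57 of 59 members had a negative log2 fold change, 54 were called negative and 1 positive. Over all 17838 genes tested, 26.5% were called negative and 26% positive. Of the 11301 genes at 64 or more, where all members lay, 36.5% were called negative and 32.7% positive. The median over the members was -0.89 (quartiles -1.14 and -0.59), beside 0.00 over all genes tested, in the authors' deposited table. Of the called members, 23 were beyond 1 in absolute log2 fold change, all negative, in the authors' deposited table; 15.5% of all genes tested were called and beyond 1. SE of the members ran from 0.05 to 0.21 in PANC1 and from 0.16 to 0.38 in KPC, in the authors' deposited tables. The 59 fold changes had a standard deviation of 0.48 and a root mean square SE of 0.08, so members differed from each other by more than their errors.

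All 12 centromere and kinetochore genes were called negative in PANC1, with a median of -1.11 in the authors' deposited table. The 3 members furthest from 0 included 2 subunits of the NDC80 complex, SPC25 at -2.26 ± 0.21 and SPC24 at -1.88 ± 0.10, which are 4.797-fold and 3.69-fold, in the authors' deposited table. Within this 4-part complex the values were spread widely. NDC80 was at -1.20 ± 0.08 and NUF2 at -0.42 ± 0.09, and the 95% intervals of these 2 subunits overlapped neither each other nor those of SPC24 and SPC25, in the authors' deposited table. CENPA was at -1.65 ± 0.12 and CENPF, with the largest mean normalised count of the group, at -1.02 ± 0.05 in the authors' deposited table. Inner kinetochore genes ran from -1.34 ± 0.11 for CENPH through -1.22 ± 0.11 for CENPK, -0.92 ± 0.09 for CENPI and -0.91 ± 0.09 for CENPN to -0.68 ± 0.15 for CENPM in the authors' deposited table. The intervals of CENPI and CENPN overlapped almost wholly.

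Cyclin genes and the kinase gene they serve were unequal in PANC1. CCNB1, the main mitotic cyclin, was at -1.71 ± 0.06, or 3.27-fold (95% interval 2.99 to 3.56), with an adjusted p of 3.13e-154 in the authors' deposited table. CCNB2 was at -1.21 ± 0.08 and CCNA2, which acts from S phase into mitosis, at -0.89 ± 0.09 in the authors' deposited table. CDK1, their catalytic partner, was at -0.35 ± 0.06, or 1.28-fold, in the authors' deposited table, and its interval overlapped that of no cyclin. Of the phosphatases that activate CDK1, CDC25C was at -0.95 ± 0.12 and CDC25B at 0.11 ± 0.06 in the authors' deposited table. CDC25B was not called there (adjusted p = 0.12), but its adjusted p was 0.039 after recentring and 0.0012 with the level trend taken off.

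The 6 mitotic kinase genes were all called negative in PANC1. AURKA, which matures centrosomes and the spindle, was furthest from 0 at -1.29 ± 0.06, followed by PLK1 at -1.06 ± 0.10 in the authors' deposited table. The checkpoint kinase genes BUB1B, TTK and BUB1 had values of -0.80 ± 0.08, -0.66 ± 0.07 and -0.52 ± 0.06 in the authors' deposited table. In the authors' deposited table AURKB, the kinase of the chromosomal passenger complex, was at -0.52 ± 0.10, and its interval did not overlap that of AURKA. Its partners INCENP (-0.57 ± 0.09) and BIRC5 (-0.61 ± 0.07) lay within the interval of AURKB, while CDCA8 was at -0.19 ± 0.07, in the authors' deposited table. Shugoshin genes, which protect cohesion at centromeres, were at -1.12 ± 0.07 for SGO2 and -0.32 ± 0.15 for SGO1 in the authors' deposited table. SGO1 was not called (adjusted p = 0.058 in the authors' deposited table), but its adjusted p was 0.012 with the level trend taken off.

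Genes of the exit from mitosis were also negative in PANC1, with an exception among the checkpoint proteins. PTTG1, which encodes securin, and ESPL1, the separase it holds in check, had overlapping intervals around -1.27 ± 0.08 and -1.06 ± 0.08 in the authors' deposited table. CDC20 was at -0.62 ± 0.07, the ubiquitin-conjugating enzyme gene UBE2C at -0.52 ± 0.07 and the checkpoint gene MAD2L1 at -0.48 ± 0.07 in the authors' deposited table. BUB3, a checkpoint protein, was at -0.05 ± 0.05 and not called in the authors' deposited table (95% interval -0.15 to 0.05). Its value turned to 0.07 with the level trend taken off.

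**Figure D3:**
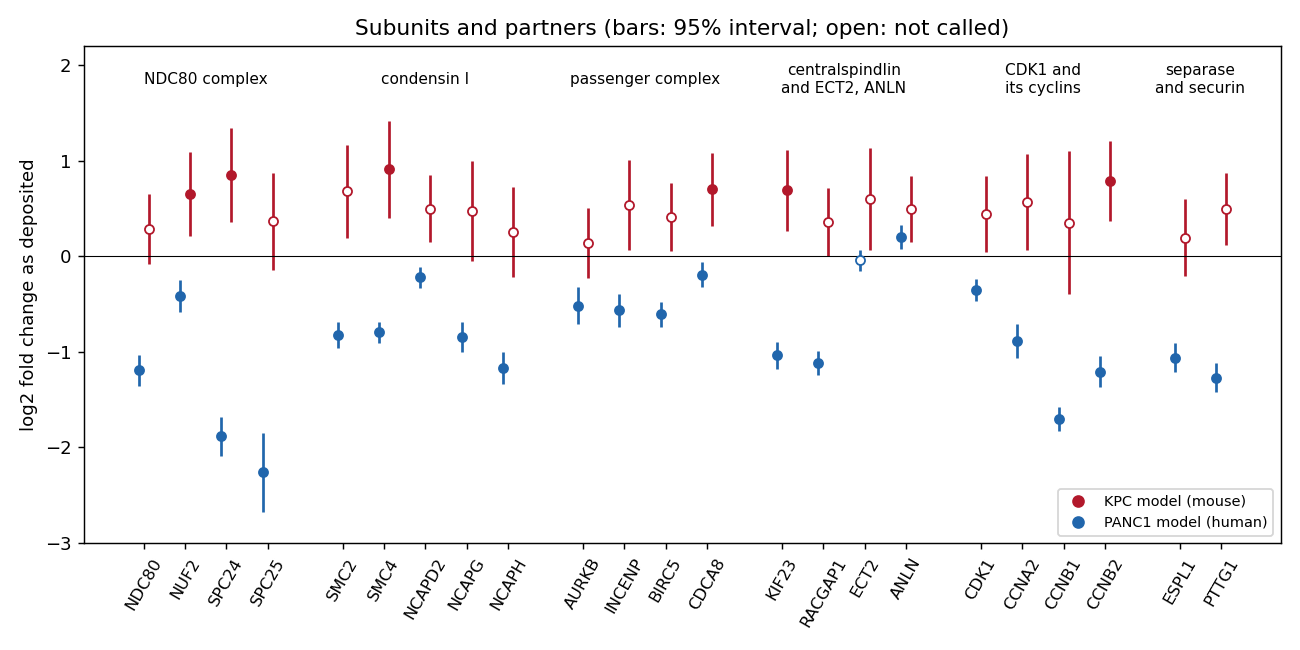
Log2 fold change as deposited (y axis) of subunits and partners of named mitotic complexes in the KPC model (red) and the PANC1 model (blue), with bars for the 95% interval and open points for genes not called. In PANC1 the NDC80 complex reaches from -0.42 for NUF2 to -2.26 for SPC25, and ANLN is the one blue point above 0.

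All 13 spindle genes of the PANC1 table were called negative, with a median of -0.94 in the authors' deposited table. KIF20A, a kinesin of the central spindle, was at -1.52 ± 0.07 and PRC1, which bundles central spindle microtubules, at -1.31 ± 0.06 in the authors' deposited table. KIF23 (-1.04 ± 0.07) and RACGAP1 (-1.12 ± 0.06), the 2 parts of centralspindlin, had overlapping intervals in the authors' deposited table. The motor genes KIF11, KIF14, KIF18A and KIF4A lay between -0.90 and -1.07, and HMMR, ASPM, TPX2 and NUSAP1 between -0.81 and -1.17, in the authors' deposited table. A further motor gene, KIF20B, was at -0.71 ± 0.07 in the authors' deposited table. KIF2C, a microtubule depolymerase, was closest to 0 at -0.16 ± 0.06 in the authors' deposited table, and its adjusted p went from 0.025 to 0.084 after recentring and to 0.42 with the level trend taken off.

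The 3 cytokinesis genes had 1 call of each sign in PANC1. ANLN, an actin-binding scaffold of the contractile ring, was the 1 member called positive, at 0.20 ± 0.06 (adjusted p = 0.0034) in the authors' deposited table. With p taken from a t distribution in place of the Wald test, ANLN, CDCA8 and KIF2C were not called, with adjusted p-values of 0.080, 0.10 and 0.14. ECT2, the exchange factor that activates RhoA at the cell equator, was at -0.04 ± 0.06 and not called in the authors' deposited table, and its value was 0.08 with the level trend taken off. RACGAP1, which binds and activates ECT2, was called negative as given above.

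Chromosome structure genes were all called negative in PANC1, 7 of 7. MKI67 was at -1.63 ± 0.07, or 3.10-fold (95% interval 2.83 to 3.39), and TOP2A, which untangles DNA, at -0.91 ± 0.05 in the authors' deposited table. Among condensin subunits NCAPH was at -1.17 ± 0.09, NCAPG at -0.84 ± 0.08, SMC2 at -0.82 ± 0.07 and SMC4 at -0.80 ± 0.06 in the authors' deposited table. NCAPD2 stood apart at -0.22 ± 0.06, with an interval that overlapped none of the 4, in the authors' deposited table. Its adjusted p was 0.081 with the level trend taken off. FOXM1 was at -0.84 ± 0.10 (adjusted p = 3.69e-17) in the authors' deposited table.

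The models share no samples, and their signs were opposite for most members. In the authors' deposited tables, 53 of 57 members were positive in KPC and negative in PANC1, 2 (ANLN and CDC25B) were positive in both, and 2 (FOXM1 and SGO1) were negative in both. The 14 members called positive in KPC were all called negative in PANC1 in the authors' deposited tables. In PANC1 91.5% of all members were called negative, beside 26.5% of all genes tested and 36.5% of genes at 64 or more. The overlap is near the share of all members and says little about single genes. The difference of the fold changes, KPC minus PANC1, was tested as a z value over the combined SE, with adjustment over all 12777 genes tested in both tables. It was positive for all 57 members and past the threshold for 51, with a median of 1.40 beside 0.13 over all genes. Over all genes, 34.9% passed in either direction and 22.2% with KPC higher. This comparison takes the order of groups to be the same in both tables, which they do not state. If the order were opposite, the signs would coincide for those 53 members, and 21 of 57 members would pass, 19 with a negative and 2 with a positive sum of the listed values (30% of all genes passed in that setting). Across the 57 members the fold changes of the models had a Pearson correlation of -0.10 and a Spearman correlation of -0.03, given as a description over genes, which share their libraries and are not replicates.

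**Figure D4:**
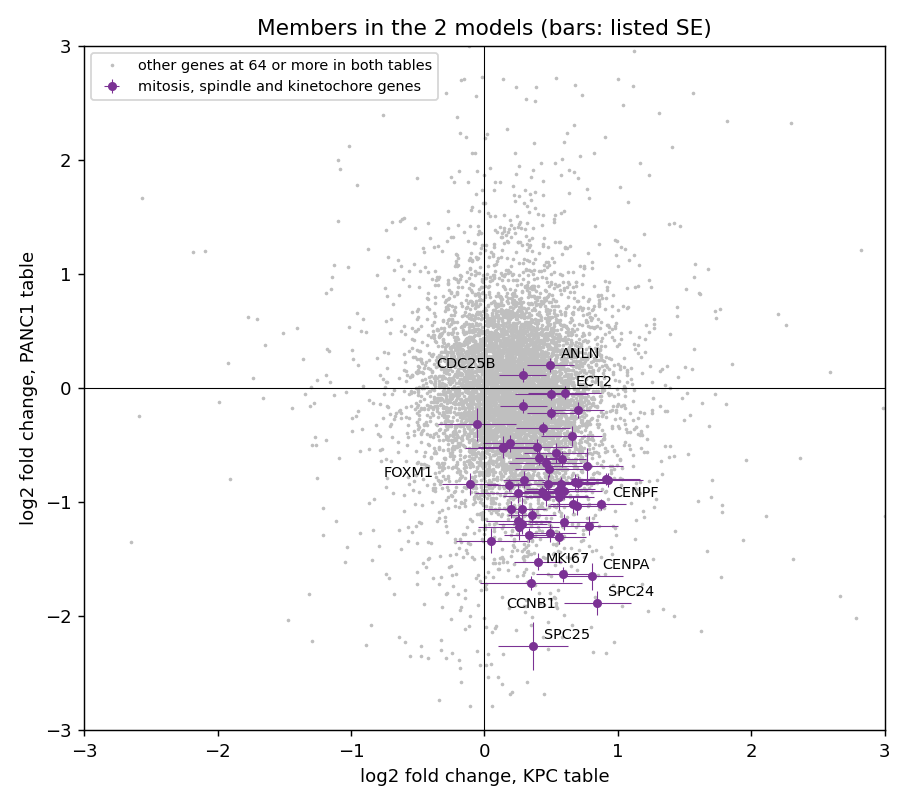
Log2 fold change in the PANC1 table (y axis) against that in the KPC table (x axis), both as deposited, for members (purple, with bars for the listed SE) and other genes at 64 or more in both tables (grey, those within 3 either way). Most members, 53 of 57, lie right of 0 and below 0, and ANLN and CDC25B lie above 0 on both axes.

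Regulators of the mitotic programme and other mitotic genes, taken from 6 lists of genes that are no members, are given for comparison. Of these 109 genes tested in PANC1, 65 were called negative and 15 positive, beside 26.5% and 26% of all genes. At 64 or more, where 107 of the 109 lay, 36.5% of genes were called negative and 32.7% positive. Of the 110 list genes tested in KPC, 10 were called positive and 1 negative. Beside these, 10.4% of all genes and 12.7% of genes at 64 or more were called in either direction. The kinetochore list had 21 negative and 2 positive calls of 29 in PANC1, and the spindle and cytokinesis list 16 and 1 of 20. In the first, ZWILCH and ZWINT, which bring checkpoint proteins to the kinetochore, were called at -1.49 ± 0.08 and -1.43 ± 0.07, and KNL1, the scaffold of the outer kinetochore, at -0.76 ± 0.07, in the authors' deposited table. MIS12 (0.37 ± 0.09) and NSL1 (0.34 ± 0.09), 2 subunits of the MIS12 complex, were called positive in the authors' deposited table. In the second, DLGAP5 (-1.24 ± 0.07), ARHGAP11A (-1.14 ± 0.08) and CEP55 (-0.71 ± 0.06) had the smallest adjusted p-values among negative calls, and CLASP1 was positive at 0.29 ± 0.06, in the authors' deposited table.

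Genes that switch the cell cycle had 11 negative and 4 positive calls of 25 in PANC1. Over all genes 52.5% were called, and 69.3% of genes at 64 or more, where all 25 lay. CCNF (-1.28 ± 0.09), CDK2 (-0.69 ± 0.08) and PKMYT1 (-1.28 ± 0.18), a kinase that inhibits CDK1, were negative in the authors' deposited table. CDC26 (1.03 ± 0.14) and ANAPC11 (0.41 ± 0.08), 2 small subunits of the anaphase-promoting complex, and CKS1B (0.41 ± 0.07) were positive in the authors' deposited table. Cohesin and condensin genes had 9 negative calls of 13 and no positive one, led by NCAPG2 (-1.11 ± 0.07), SMC1A (-1.004 ± 0.07) and SMC3 (-0.80 ± 0.05) in the authors' deposited table.

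MYBL2, the B-MYB factor that joins MuvB at these promoters, was at -2.23 ± 0.11 in PANC1 (adjusted p = 2.02e-88) and at -0.60 ± 0.20 in KPC (adjusted p = 0.032), called negative in both of the authors' deposited tables. It was thus of the opposite sign to the called members in KPC and of the same sign in PANC1. Among the other genes of its list in PANC1, E2F8 (-1.93 ± 0.18), TFDP1 (-0.88 ± 0.08) and RBBP4 (-0.67 ± 0.05) were called negative in the authors' deposited table. E2F4 (0.70 ± 0.07), LIN52 (0.69 ± 0.12) and E2F7 (0.29 ± 0.12) were called positive there. This list had 6 negative and 3 positive calls of 13 in PANC1, and E2f5 (0.74 ± 0.23) was its 1 positive call in KPC in the authors' deposited table. For this list and the next, the shares to compare in PANC1 are 52.5% of all genes called and 69.3% of genes at 64 or more. The calls of the first list were near the latter share. Arrest genes had 5 positive and 2 negative calls of 9 in PANC1. BTG1 was at 1.07 ± 0.06, GADD45B at 1.45 ± 0.09 and CDKN1C, a CDK inhibitor, at 1.81 ± 0.17 in the authors' deposited table, against BTG2 at -0.94 ± 0.32 and CCNG2 at -0.44 ± 0.12. CDKN1A, the p21 inhibitor, was called in neither model as deposited, at -0.10 ± 0.10 in PANC1 and -1.12 ± 0.41 in KPC (adjusted p = 0.057, mean normalised count 33.6) in the authors' deposited tables. After recentring Cdkn1a was called negative in KPC, at -1.34 with an adjusted p of 0.019, and with the level trend taken off it was not (adjusted p = 0.13).

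In KPC 11 of the 110 genes of these lists were called, which is near the 10.4% of all genes. Of genes at 64 or more, 12.7% were called. Kinetochore genes had Mad1l1 (0.97 ± 0.23) and Kntc1 (0.67 ± 0.20) of 28, and spindle genes Nek2 (0.77 ± 0.18), Dlgap5 (0.76 ± 0.18) and Tacc3 (0.72 ± 0.18) of 20, all positive in the authors' deposited table. Cohesin and condensin genes had Pds5b (0.76 ± 0.22) and Stag1 (0.75 ± 0.23) of 13, and arrest genes Btg1 (0.72 ± 0.24) and Btg2 (0.94 ± 0.31) of 11, also positive in the authors' deposited table. None of the 25 switch genes was called by the Wald test in KPC. Of the 11 genes called in these lists, 3 were called once the level trend was taken off: Mad1l1, Nek2 and Mybl2, with adjusted p-values of 0.032, 0.035 and 0.0019. After recentring, 5 of the 11 were called, those 3 and Dlgap5 and Tacc3.

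Markers of other cells were measured beside these results. Of all genes tested, 10.4% were called in KPC and 52.5% in PANC1. Of genes at 64 or more, 12.7% were called in KPC and 69.3% in PANC1. Of 32 host markers tested in KPC (hepatocyte, leukocyte, endothelial and fibroblast lists), 0 were called positive and 2 negative, and 2, Apob and Cd14, reached 64 in mean normalised count in the authors' deposited table. Of these 32, 28 had negative values, with a median of -1.31 in the authors' deposited table, and 13 had an unadjusted p under 0.05. Their median mean normalised count was 13.8, and with the level trend taken off their median fold change was -0.37. The negative calls were Adgre1 (-2.88 ± 0.75) and Col1a1 (-1.84 ± 0.63), at mean normalised counts of 13.4 and 19.9 in the authors' deposited table. Of 20 tested in PANC1, 3 were called positive and 3 negative, and 4 were at 64 or more in the authors' deposited table. These were the macrophage gene CD68 (1.91 ± 0.07, mean normalised count 1103), the collagen genes COL3A1 (1.05 ± 0.11) and COL1A1 (-0.13 ± 0.16) and the liver gene CPS1 (-1.45 ± 0.18) in the authors' deposited table. Genes of the PANC1 model are listed by human symbols and the host animal is not named. Its marker values therefore cannot be assigned to host cells, and may come from the injected cells. The hepatocyte gene Alb had a mean normalised count of 10.4 in KPC, and the hepatocyte gene Apob 9009 with a fold change of -0.13 ± 0.32, in the authors' deposited table. The tumour epithelium markers had 1 positive call (Krt7) and 1 negative call (Epcam) of 7 in KPC. In PANC1 they had 5 negative calls of 7, with KRT8 at -4.35 ± 0.06, KRT19 at -3.79 ± 0.05, KRT18 at -3.35 ± 0.05 and CDH1 at -3.92 ± 0.10, and 1 positive call, EPCAM at 0.97 ± 0.10, in the authors' deposited table. The part of these differences in the values of the mitosis genes was not tested.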

How the data were processed

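Builds hg19 and mm39 and the programs DESeq2 1.24, featureCounts 2.0.0, STAR 2.7.6a and MultiQC 1.9 are listed per the submitters' processing notes; settings, annotation and model design are not given in the sources used here. The authors deposited 1 comparison table per model. The mean normalised count was deposited as a signal, which the headers do not define and which is read as DESeq2's mean of counts over size factors. The authors deposited log2 fold changes and their SE on the log2 scale. The Wald statistic was deposited as a score and equalled the fold change over its SE within 9.17e-08. A 2-sided normal p computed from it differed from the deposited p-value by at most 5.00e-08. A Benjamini-Hochberg adjustment differed from the deposited adjusted p-value by at most 2.50e-06. Adjusted p-values were listed for 20050 KPC and 17838 PANC1 genes.

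Members and gene lists were chosen with earlier results of these data known. Named genes were all members called in either table or different between models, the most abundant and most changed member of each role, up to 3 called genes per further list, sign and model, and FOXM1, MYBL2 and CDKN1A. E2F8 was named as well, outside this rule. A 95% interval is the fold change and 1.96 SE either way. Intervals cover the fitted error only. Models were matched by symbol in capitals. Alternatives were a stricter threshold, a minimum fold change, adjustment over all genes with a p, a minimum level of 64, recentring on the genes above it, subtraction of a running median over genes ordered by level, and a t distribution with 4 degrees of freedom. Steps were tested on simulated data. Computation used scipy 1.17.1, pandas 2.3.3 and numpy 2.4.6 in Python 3.11.15, and plots matplotlib 3.10.9.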

Additional observations from a re-analysis of the deposited data

Results flagged for a closer look

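The difference of log2 fold changes, KPC minus PANC1, passed an adjusted p of 0.05 in 51 of 57 members, by a z test over the combined SE with Benjamini-Hochberg adjustment over 12777 genes, of which 34.9% passed. All 51 were positive, and SE of the differences ran from 0.17 to 0.39. The order of groups was taken as the same in both tables, which they do not state. With the opposite order 20 of these 51 passed.

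Among cyclin, CDK1 and phosphatase genes the differences were 2.06 for CCNB1, 1.99 for CCNB2, 1.51 for CDC25C, 1.45 for CCNA2 and 0.79 for CDK1. Kinase genes differed by 1.62 for AURKA, 1.34 for PLK1, 1.12 for TTK, 1.10 for BUB1B and 0.66 for AURKB. In the group of checkpoint and exit genes the values were 1.76 for PTTG1, 1.26 for ESPL1, 1.20 for CDC20, 0.91 for UBE2C and 0.68 for MAD2L1.

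Of the 12 kinetochore genes 12 passed, and 6 did with the opposite order. SPC24 differed by 2.73, SPC25 by 2.63 and CENPA by 2.45. With the opposite order the values of these 3 were -1.04, -1.90 and -0.85. The rest of that group were at 1.89 for CENPF, 1.54 for CENPE, 1.48 for CENPK, 1.48 for NDC80, 1.46 for CENPN, 1.45 for CENPM, 1.39 for CENPH, 1.17 for CENPI and 1.07 for NUF2. Passenger complex genes differed by 1.10 for INCENP, 1.02 for BIRC5 and 0.89 for CDCA8.

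Spindle genes found in both tables passed in 12 of 12 cases, and 3 did with the opposite order (KIF20A, PRC1 and TPX2). Their differences were 1.93 for KIF20A, 1.86 for PRC1, 1.77 for HMMR, 1.73 for ASPM, 1.73 for KIF23, 1.69 for KIF14, 1.503 for KIF11, 1.41 for NUSAP1, 1.40 for KIF18A, 1.19 for KIF20B, 1.03 for TPX2 and 0.45 for KIF2C. Chromosome structure genes gave 2.22 for MKI67, 1.70 for SMC4, 1.501 for SMC2, 1.42 for NCAPH, 1.34 for TOP2A, 1.32 for NCAPG and 0.72 for NCAPD2. RACGAP1 was at 1.47 and FOXM1 at 0.73. The 6 members that did not pass were ANLN, BUB1, BUB3, CDC25B, ECT2 and SGO1, with adjusted p-values from 0.057 for ECT2 to 0.57 for SGO1.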

How the results depend on the processing

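No paired analysis was possible because the tables hold no value per sample; for the same reason replicates could not be left out and no replicate block was fitted. Of the 14 members called in KPC, 5 were called at an adjusted p under 0.01, 0 with an absolute log2 fold change over 1 as well, 1 after recentring, 1 after the running median was subtracted and 0 with p taken from a t distribution (4 degrees of freedom), where 14 members had an unadjusted p under 0.05 and 0 of all genes passed. The count was 13 with adjustment over all genes with a p and 18 over genes at 64 or more. All those calls were positive. Recentring moved the split of all KPC calls from 1157 positive and 922 negative to 506 and 1643, and the running median to 584 and 549. The KPC median went from 0.48 to 0.25 with the running median subtracted and to 0.26 with recentring. In PANC1, of the 55 members called, 23 had an absolute log2 fold change over 1, and between 52 and 56 were called under each other alternative. With the opposite order of groups 21 members differed between models in place of 51, and 44 to 50 did under the other alternatives. Members not called in KPC whose sign turned after recentring and after the running median were Aurkb (-0.080 and -0.092), Bub1 (-0.078 and -0.083), Cenph (-0.17 and -0.20), Espl1 (-0.024 and -0.044), Mad2l1 (-0.024 and -0.029) and Tpx2 (-0.037 and -0.048). In the further lists 16 genes turned after recentring and 13 after the running median, none of them called before; those named by the rule were Anapc11 (-0.028 and -0.050), Arhgap11a (-0.040 and -0.069), Cep55 (-0.042 and -0.064), Clasp1 (-0.20 and -0.22), Mis12 (-0.0090 and -0.046) and Smc3 (-0.029 and -0.024). In PANC1 the running median turned 2 members, BUB3 (0.072) and ECT2 (0.078), and 10 genes of the further lists, E2F5 (-0.022) among them, none called before. The cause of these changes was not tested. Depth per sample is unknown, and the SE limits KPC: its 95% intervals leave room for changes of either sign in many members that were not called.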
